A study of Mus musculus with 8 samples.

Results

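Transcripts that the gene annotation marks as likely targets of nonsense-mediated mRNA decay (NMD) were examined in the hippocampus of mice given the ATM blocker KU55933 or vehicle. They were taken as every row of the deposited transcript table with the biotype nonsense_mediated_decay, which gave 5207 of 74764 transcripts, in 3563 of 19558 genes. The rule itself uses no measured value. For each transcript its share was computed, which is its estimated count as a percentage of the summed counts of all transcripts of the same gene.

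NMD is a surveillance pathway that removes mRNAs on which translation stops early. When a ribosome terminates well upstream of an exon junction, the exon junction complex that splicing left there recruits UPF3 and UPF2, the helicase UPF1 is phosphorylated by the kinase SMG1, and SMG5, SMG6 and their partners bring in cleavage, deadenylation and decapping. SMG1 belongs to the same family of large protein kinases as ATM. Many RNA-binding proteins limit their own amount by splicing in an exon that carries such a stop codon, often called a poison exon. The biotype is assigned from the position of the stop codon in the gene model and does not show that an RNA was degraded.

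All animals were wild-type mice of the strain labelled C57BL/6 KP at postnatal day 40, and every sample was labelled hippocampus. Under anesthesia, 4 mice received KU55933 through the nose and 4 received vehicle, which was 4% DMSO in saline, with a stated dose of 7.5 mg/kg. The interval before tissue was taken is not given in the sources used here, and the library text names RNA inputs for hypothalamus and PFC although the sample labels name neither. Beyond the stated 4 animals per group, no label ties a library to an animal, so p-values measure the spread between these libraries.

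The annotated stop codons of these transcripts lay far upstream of their last exon junction. The biotype is assigned from that position, so this describes the class and is not a separate finding. GENCODE mouse release M21, on another genome build than the authors' GRCm39, held 5191 of the 5207 transcripts (99.7%), so only transcript features and no coordinates were taken from it. For 5175 of them it gave a stop codon. In 5146 (99.4%) the stop codon was more than 50 bases before the last junction, at a median of 349 bases, with a median of 3 junctions behind it. Compared with the coding transcripts of the same gene, 372 held an exon that spanned a coding transcript's whole intron, 1576 held an exon that overlapped no coding exon, and 3167 differed in other ways. The last 45 coding bases of members that recur below show where translation is annotated to end. They are read 5′ to 3′ on the sense strand, with the stop codon in capitals.
Atp2a2: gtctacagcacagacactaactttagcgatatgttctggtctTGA
Epha4: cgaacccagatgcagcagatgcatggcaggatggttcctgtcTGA
Mobp: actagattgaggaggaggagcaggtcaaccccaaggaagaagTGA
Ddx5: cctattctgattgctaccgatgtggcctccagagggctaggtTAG
Ppia: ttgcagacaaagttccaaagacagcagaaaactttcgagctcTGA
Fbxo22: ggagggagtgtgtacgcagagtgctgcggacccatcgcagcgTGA
Lpcat1: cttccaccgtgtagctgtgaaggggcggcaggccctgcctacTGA
Micall1: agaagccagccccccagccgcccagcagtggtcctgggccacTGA
Atp5pb: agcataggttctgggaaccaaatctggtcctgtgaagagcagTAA
Mdm2: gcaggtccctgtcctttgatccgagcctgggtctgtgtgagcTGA
Spcs2: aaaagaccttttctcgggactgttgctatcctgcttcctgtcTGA
Dnm1: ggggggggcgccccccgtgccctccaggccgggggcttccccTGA
Rpl27a: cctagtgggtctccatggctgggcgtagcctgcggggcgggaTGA
Tra2b: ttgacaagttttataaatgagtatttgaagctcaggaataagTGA

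These ends fell at very different points of the reading frame. The Atp2a2 and Epha4 transcripts kept a reading frame as long as the longest coding one of the gene (100%), and a single junction lay behind the stop codon, 1258 and 823 bases downstream. The Ddx5 transcript kept 66.1% of that length and the Spcs2 transcript 68.2%. Those of Fbxo22 (10.4%), Lpcat1 (14.6%) and Tra2b (13.5%) ended early, with 5, 11 and 8 junctions behind the stop codon. Over 3434 host genes with a value, the reading frame of the most abundant NMD transcript had a median of 26.0% of the longest coding one. These are annotated lengths. Some frames, such as those of Dnm1 and Rpl27a, begin at the first base of the transcript and may be incomplete. Such frames were not left out.

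Estimated counts can be moved between transcripts that share their sequence, and many members share most of theirs. Of 5188 members with exons in the release, 2638 had no base outside the exons of other listed transcripts of their gene, and the median was 1 splice junction of their own. Neither an own base nor an own junction was found for 442. Among the 86 such members later called for a changed share, the corresponding numbers were 54 without an own base and 10 with neither. How the authors' estimation divided reads among such transcripts was not tested.

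NMD transcripts held about 2% of the counts in every library. Their percentage of all counts was 1.79, 1.89, 1.87 and 1.90 in the 4 vehicle libraries and 1.86, 2.04, 1.99 and 2.07 in the 4 KU55933 libraries. The means were 1.86% ± 0.0507 (SD, n = 4) and 1.99% ± 0.0900 (SD, n = 4). KU55933 libraries 2 to 4 lay above all vehicle libraries, and KU55933 1 lay within their range. Without KU55933 1 the difference was 0.168 percentage points in place of 0.126. Lars2 alone held 65266 of the 658676 NMD counts of KU55933 1, against 5587 to 28368 counts in each other library. The part of Lars2 in the difference was not tested. In 2849 host genes with at least 200 counts in every library, the median NMD share went the other way. It was 2.03% ± 0.122 with vehicle and 1.82% ± 0.210 with KU55933 (SD, n = 4), with overlap between groups. Fewer different NMD transcripts were seen with KU55933, with 3818 to 4067 having a count against 4156 to 4280, in libraries that were also smaller (34190440 to 37499003 against 40586998 to 46630341 estimated counts).

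KU55933 1 stood apart from the other 7 libraries in its intron-containing RNA. Retained-intron transcripts, a separate annotated class, held 2.07% of its counts, 2.77% in vehicle 1 and 3.35% to 4.16% in the other 6. NMD transcripts that span an intron held 7.01% of its NMD counts against 10.1% to 11.8% elsewhere. Among host genes with at least 200 counts in every library and an NMD share of over 5% in all other libraries, 57 of 762 had a share in KU55933 1 under 0.6 times that of every other library. The same count was 2 to 9 in each of the others, of 723 to 733 genes. KU55933 1 and 2 also carried more choroid plexus RNA, with a mean of 5.37 and 5.18 log2 CPM (counts scaled to library size) over the 8 markers against 2.29 to 3.08 in the other libraries, and 1 of these markers, Kcnj13, was called higher at the gene level. The 8 hippocampal neuron markers averaged 8.49 to 8.52 log2 CPM with vehicle and 8.17 to 8.25 with KU55933, with 4 of 8 called lower (edgeR calls 21.6% of all genes), and 0 of 8 with a correction for GC content and length. The part of these differences in the results below was not tested beyond leaving libraries out.

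**Figure D1:**
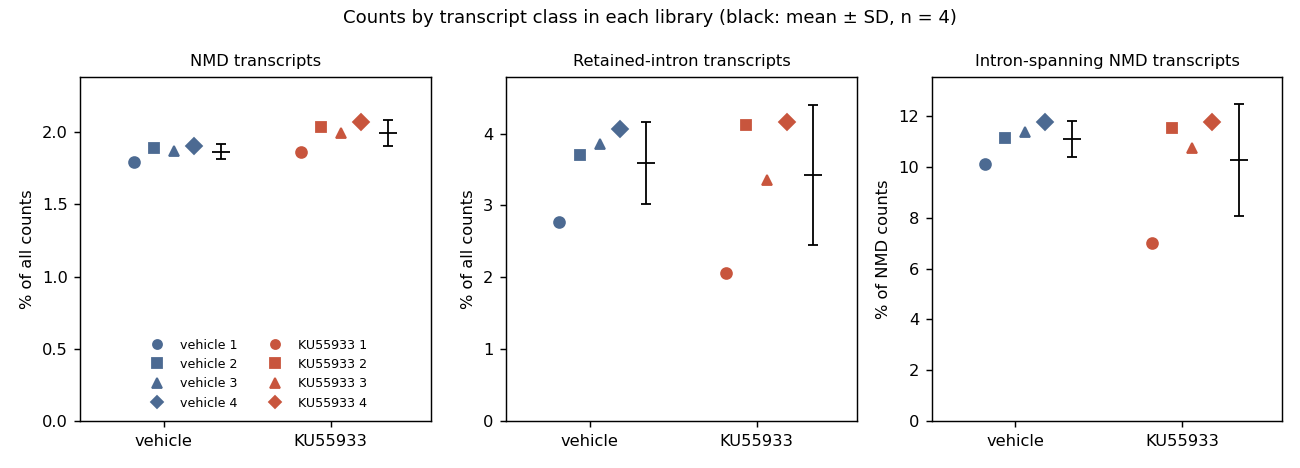
Percentage of each library's counts on NMD transcripts (left) and on retained-intron transcripts (middle), and percentage of its NMD counts on intron-spanning NMD transcripts (right). Each symbol is a library and the black bars are the mean and SD of 4 libraries. KU55933 1 was lowest in the middle and right panels, at 2.07% and 7.01%.

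A few genes carried much of the NMD signal. The leading gene, Atp2a2, held 4.63% of the NMD counts, the leading 3 held 11.0%, the leading 12 held 21.3%, and 95 of 3563 genes held 50%. The 12 were Atp2a2 (the SERCA2 calcium pump of the endoplasmic reticulum), Mobp (a myelin protein of oligodendrocytes), Lars2 (the mitochondrial leucyl-tRNA synthetase), Ddx5 (an RNA helicase), Lgi1 (a secreted synaptic protein), Ppia (cyclophilin A), Rpsa (a ribosomal protein), Iqsec3 (an exchange factor of inhibitory synapses), Gm20716, Epha4 (an ephrin receptor), Ttyh1 and Pip5k1c (a lipid kinase). In Atp2a2 the NMD transcript was nearly the whole gene, at 99.01%, 99.6%, 97.0% and 96.8% of counts with vehicle and 99.2% to 99.4% with KU55933. Gm20716 had no other transcript in the table.

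The group means of Mobp and Lgi1 differed by less than the spread between libraries. Mobp stood at 85.9% ± 1.18 with vehicle and 86.2% ± 1.36 with KU55933 (SD, n = 4), and Lgi1 at 88.7% ± 1.05 and 88.8% ± 0.977. The Mobp counts themselves ranged from 16121 to 44410 among vehicle libraries. In bulk tissue, fewer cells of a type and less RNA per cell cannot be told apart. For Ddx5 the vehicle libraries gave 40.6%, 37.8%, 37.9% and 38.7%, and the KU55933 libraries 19.5%, 41.4%, 40.2% and 40.7%, so only KU55933 1 was low. The leading NMD transcript of Ddx5 spans an intron and is itself part of the class that was low in that library. Ddx5 had 6459 NMD counts in KU55933 1 and 16414 to 20496 in each other library. The low class and the low Ddx5 share are therefore not separate observations.

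Lars2 varied between libraries. Its NMD transcript had 11237, 13768, 13898 and 15256 counts with vehicle and 65266, 17954, 28368 and 5587 with KU55933. KU55933 1 was the highest library and KU55933 4 the lowest. The gene's level was not called (edgeR log2 change 1.21 ± 0.60 SE, adjusted p = 0.183). Its summed NMD share was 80.2%, 86.3%, 88.0% and 89.6% with vehicle and 97.7%, 95.3%, 96.1% and 76.2% with KU55933, so KU55933 4 was the lowest library there too.

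Ppia was the leading gene whose NMD share rose. The vehicle libraries gave 27.0%, 34.1%, 29.0% and 33.9% and the KU55933 libraries 53.7%, 68.3%, 54.1% and 48.0%, and the groups did not overlap. The summed share was called by edgeR (adjusted p = 0.00265, log2 usage change 0.84 ± 0.16 SE), by limma on logit shares (adjusted p = 0.0401) and in each of the 8 fits without a library. The gene's level did not pass the edgeR test (log2 change -0.11, adjusted p = 0.322). Rpsa (53.3% ± 2.74 and 71.0% ± 6.65), Iqsec3 (74.8% ± 11.6 and 93.1% ± 1.33) and Ttyh1 (33.6% ± 6.36 and 49.6% ± 1.25) had higher values in every KU55933 library (SD, n = 4), but edgeR's adjusted p was 0.354, 1 and 0.0987. Ppia and Rpsa have many near-identical pseudogene copies, so reads assigned to them are uncertain.

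**Figure D2:**
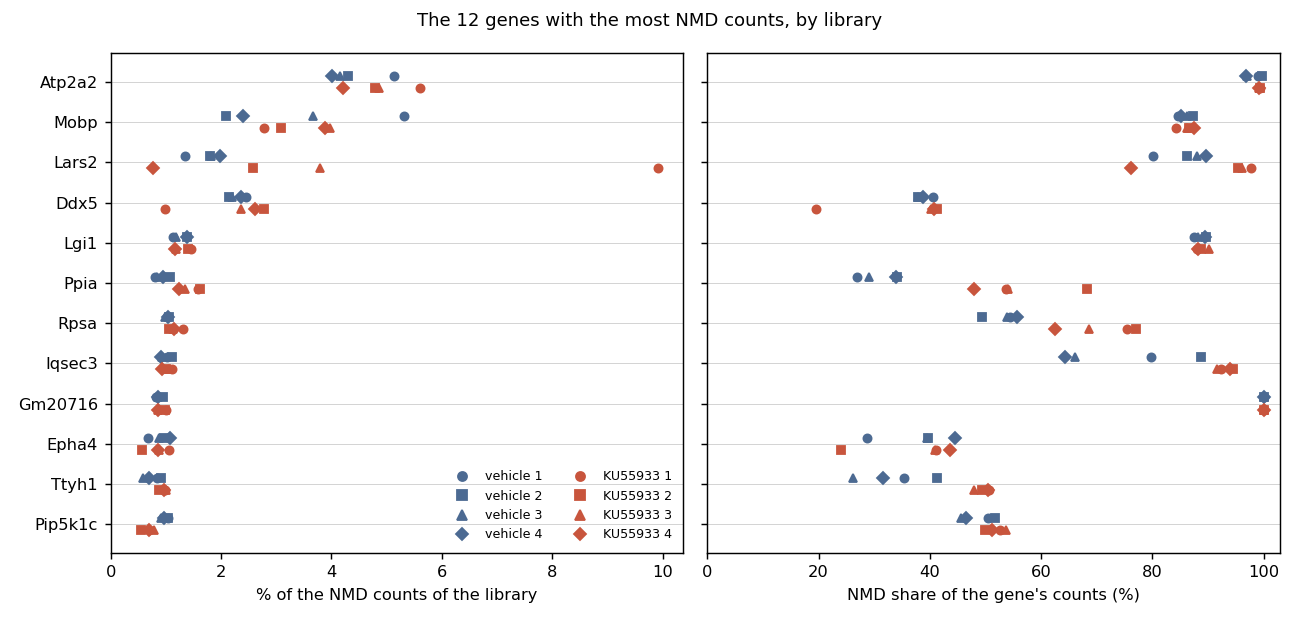
The 12 genes with the most NMD counts, shown as a percentage of each library's NMD counts (left) and as the summed NMD share of the gene's own counts (right), with a symbol for each library. Lars2 in KU55933 1 lies far right in the left panel, Ddx5 in KU55933 1 lies far left in the right panel, and Ppia, Rpsa, Iqsec3 and Ttyh1 separate the groups.

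In the typical host gene NMD transcripts were a small fraction. The mean share over all libraries had a median of 3.34% and quartiles of 0.529% and 15.97%, and 1163 genes were under 1%. At the other end 285 genes had over 50%, of which 196 also had other transcripts in the table and 82 carried provisional symbols. With counts divided by transcript length, 276 genes were over 50%, and these need not all be among the 285. In the hosts over 50% the leading NMD transcript had a median length of 2721 bases, against 934 bases in hosts under 5%. Its annotated reading frame, which can be incomplete, had a median of 36.5% of the longest coding one against 22.5%.

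For individual NMD transcripts, edgeR's transcript usage test, which asks whether a transcript moved differently from the rest of its gene, called 87 of 2769 tested members at an adjusted p under 0.05. Of these 39 rose and 48 fell, which is 3.14% against 3.39% of all 40078 transcripts tested. The edgeR test takes 1 spread for all transcripts of a gene, whereas limma on logit shares uses each transcript's own spread, and 24 of the rises and 20 of the falls were also called by it. In all, limma on logit shares called 79 of the 2769 members (2.85%), 45 higher and 34 lower. Its percentage over all transcripts is not given here. By edgeR without vehicle 4 the falls numbered 29.

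Summed over all NMD transcripts of a gene, the share changed in 97 of 2207 genes, 54 higher and 43 lower. That is 4.395% against 2.36% of all 17855 combinations of gene and biotype class tested. limma on logit shares also called 25 of the 54 and 18 of the 43, and 18 and 14 passed every check, which were limma, a correction for GC content and length, all 8 fits without a library, and no overlap between groups. In all, limma on logit shares called 52 of the 2207 genes (2.356%), 31 higher and 21 lower. Its percentage over all combinations, and that of passing every check, is not given here. The comparison with all combinations therefore rests on edgeR. By edgeR the rises numbered 29 without vehicle 3 and 33 without vehicle 4, and the falls 22 and 28. Among all tested genes the median log2 usage change was -0.01.

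Host gene level was tested separately from the share. Of the 54 genes with a higher NMD share, 25 were called lower at the gene level, 2 higher and 27 not called. Of the 43 with a lower share, 18 were lower, 4 higher and 21 not called. In all, 769 of 3459 tested host genes were called at the gene level, 261 higher and 508 lower (22.2% against 21.6% of all 15481 genes). After correction for GC content and length 11 were higher and 27 lower.

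**Figure D3:**
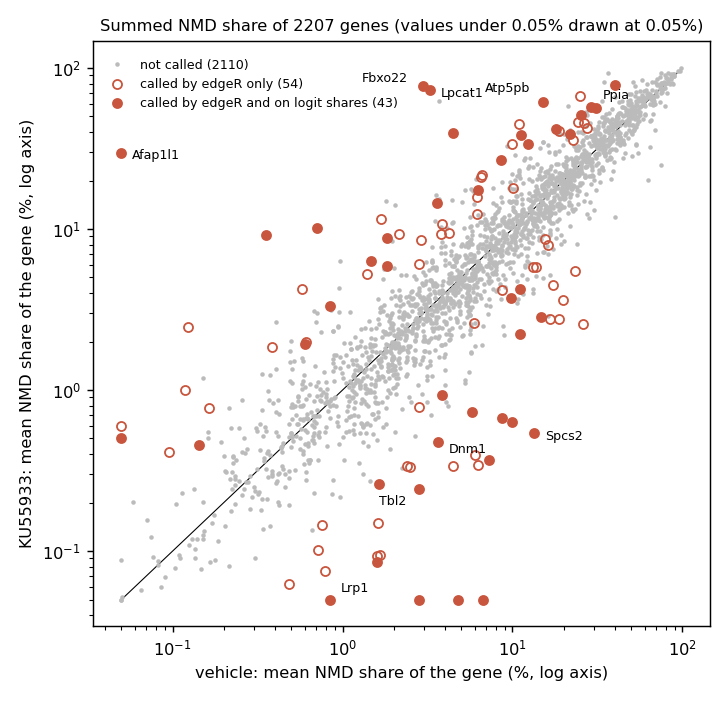
Mean summed NMD share of 2207 genes with vehicle (horizontal) and KU55933 (vertical), both in percent on log axes, with the diagonal as a line. Filled circles are the 43 genes called by edgeR and by limma on logit shares, open circles the 54 called by edgeR only, and small points the 2110 not called. Shares under 0.05% are drawn at 0.05%.

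The largest named rises took NMD transcripts from near 0 to a large part of the gene. Rises and falls were named only among called transcripts without overlap between groups, so that separation was set by the choice. They were also ranked by log2 usage change, with a mean share of at least 5%. This ranking favors rises with a vehicle share near 0 and falls with a KU55933 share near 0. Those low shares are therefore not a separate finding. Afap1l1, an actin filament-associated protein, had no NMD count in any vehicle library and 126, 159, 139 and 109 with KU55933. That made 29.5% ± 6.62 (SD, n = 4) of the gene, and the transcript was at least 52.7-fold higher in CPM against a floor of 3 counts per vehicle library (edgeR adjusted p = 6.31e-09). For Fbxo22, an F-box protein of a ubiquitin ligase, the vehicle libraries gave 0%, 3.66%, 0% and 0.972% and the KU55933 libraries 90.5%, 81.9%, 65.9% and 67.2%. The groups were far apart, with a log2 usage change of 6.05 ± 1.07 SE (edgeR adjusted p = 0.000937, limma on logit shares 0.0146). Without vehicle 2 it was 7.84, and the summed share of both NMD transcripts of Fbxo22 was 2.97% ± 1.73 and 77.5% ± 10.8 (SD, n = 4). The coding transcript that moved most the other way, chosen for that, held 88.7% ± 6.01 and 20.7% ± 10.3 of Fbxo22 (edgeR adjusted p = 0.201), and the gene's level was not called (edgeR adjusted p = 0.855).

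Lpcat1 and Micall1 had rises of a similar kind. Lpcat1, a lysophospholipid acyltransferase, had 13.1% in vehicle 1, 0% in the other vehicle libraries, and 88.0%, 84.4%, 49.3% and 71.2% with KU55933 (edgeR adjusted p = 0.0104, limma on logit shares 0.0318). The coding transcript that moved most the other way held 94.7% ± 6.30 and 24.9% ± 17.96 (SD, n = 4; edgeR adjusted p = 0.313). The log2 usage change was 4.31 ± 1.02 SE, and 13.14 without vehicle 1. The remaining vehicle libraries all had 0 counts, so 13.14 is set by the fit and is not a measured fold change. Without KU55933 1 and 2 together the Lpcat1 rise had an adjusted p of 0.165. Micall1, an adaptor of endocytic recycling, gave 3.55%, 6.63%, 0.864% and 6.06% with vehicle and 46.1%, 53.8%, 26.5% and 30.4% with KU55933. The log2 usage change of Micall1 was 3.22 ± 0.45 SE (edgeR adjusted p = 6.45e-05, limma on logit shares 0.0237). The transcripts named here for Afap1l1, Fbxo22, Lpcat1 and Micall1 had no base of their own and 1 junction each. As levels, edgeR called those of Afap1l1 (adjusted p = 0.00202), Fbxo22 (0.0180) and Micall1 (0.0177) higher, and not that of Lpcat1 (0.186). The genes Afap1l1 (log2 change -0.39, edgeR adjusted p = 0.0201) and Micall1 (-0.37, 0.0309) were called lower, and Lpcat1 was not called (0.833). With the GC and length correction Afap1l1 and Micall1 gave 0.296 and 0.850.

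The other 4 named rises were smaller in share. Dnajc4, a J-domain protein, rose from 0.705% ± 0.636 to 10.2% ± 3.46 (SD, n = 4; edgeR adjusted p = 0.000744) on 24 counts or fewer per library. A single NMD transcript of Plpp5, a phospholipid phosphatase, rose from 0.542% ± 1.08 to 16.9% ± 4.24 (adjusted p = 0.00837), while the summed share of its 4 NMD transcripts was 61.7% ± 3.70 and 79.7% ± 8.93 and was not called (edgeR adjusted p = 1). Slc46a1, the folate transporter, rose from 1.67% ± 1.64 to 11.6% ± 1.86 (adjusted p = 0.0087), and Med25, a Mediator subunit, from 1.75% ± 1.28 to 8.73% ± 1.87 (adjusted p = 0.00456). The Med25 transcript had 102, 51, 19 and 38 counts with vehicle and 120, 131, 110 and 121 with KU55933. The genes Med25 (log2 change -0.91, edgeR adjusted p = 0.00106) and Dnajc4 (-0.70, 0.00715) were themselves called lower. With the GC and length correction they gave 0.0971 and 0.331. The genes Plpp5 (0.464) and Slc46a1 (0.146) were not called by edgeR. The log2 usage change was 4.82 for Plpp5 and 9.91 without vehicle 4, and 2.87 for Slc46a1 and 3.54 without vehicle 4. For Plpp5 the remaining vehicle libraries all had 0 counts, so 9.91 is set by the fit and is not a measured fold change. The Plpp5 call was lost without vehicle 2 (adjusted p = 0.0602) or vehicle 3 (0.0881), and the Med25 call without vehicle 3 (0.0883) or vehicle 4 (0.0561). limma on logit shares called the Med25 transcript (0.0362). The summed NMD share of Med25 stayed called by edgeR in every fit without a library (adjusted p up to 0.00959). That of Slc46a1 was lost without vehicle 1 (0.0561). For the Slc46a1 transcript the call was lost without vehicle 1 (0.0899), vehicle 2 (0.131) or vehicle 3 (0.0641), and limma on logit shares did not call it (0.0813). As levels, edgeR did not call the transcripts of Med25 (adjusted p = 0.107), Plpp5 (0.0670), Dnajc4 (0.0624) or Slc46a1 (0.0868).

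Among the falls, Spcs2, a subunit of the signal peptidase complex, lost nearly all of its NMD share. Vehicle libraries gave 12.2%, 5.99%, 19.5% and 15.8% and KU55933 libraries 1.69%, 0%, 0.249% and 0.228%. The log2 usage change was -4.50 ± 0.84 SE (edgeR adjusted p = 0.000383, limma on logit shares 0.044), and it was -6.31 without KU55933 1. This transcript has an exon that overlaps no coding exon, with 133 bases found in no other listed transcript, and 2 junctions of its own. Pcdhgc3, a clustered protocadherin, fell from 14.8% ± 5.09 to 2.85% ± 1.29 (SD, n = 4; edgeR adjusted p = 0.000786) and was also called by limma on logit shares (0.0280) and in all 8 fits without a library. The gene Spcs2 was called higher (log2 change 0.28, edgeR adjusted p = 0.0240, and 0.362 with the GC and length correction). Pcdhgc3 was not called at the gene level (0.0525). As a level, edgeR did not call the Spcs2 transcript (0.0518) and called the Pcdhgc3 transcript lower (0.00247).

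The remaining 6 named falls had more uneven support. Acd, a shelterin protein of telomeres, fell from 11.0% ± 3.62 to 0.946% ± 1.22 for a single transcript (edgeR adjusted p = 8.31e-05), while the summed share of all its NMD transcripts was 55.0% ± 5.73 and 65.1% ± 3.86. Smarca2, an ATPase of a chromatin remodelling complex, fell from 8.87% ± 5.14 to 1.83% ± 0.776 for a single transcript (adjusted p = 0.000346), with a summed share of its 4 NMD transcripts of 16.1% ± 5.76 and 7.96% ± 0.810 (edgeR adjusted p = 0.00158). limma on logit shares gave an adjusted p of 0.0523 for Acd and 0.0731 for Smarca2. Mrps11, a mitochondrial ribosomal protein, fell from 9.98% ± 3.00 to 0.631% ± 0.791 (adjusted p = 0.0168), a call lost without KU55933 1 (0.0729) or KU55933 2 (0.0633). This is the only NMD transcript of Mrps11. Tested as the summed share of the gene, it gave an adjusted p of 0.000637 by edgeR and 0.0304 by limma on logit shares. That edgeR call was kept in every fit without a library (adjusted p up to 0.0061). The log2 usage change was -3.73 for Mrps11 and -4.83 without KU55933 4, and -3.47 for Acd and -4.88 without KU55933 3. This Mrps11 transcript has no base and no junction of its own. The genes Acd (log2 change -0.38, edgeR adjusted p = 0.0164) and Mrps11 (-0.38, 0.04997) were called lower, and Smarca2 was not called (0.512). With the GC and length correction Acd and Mrps11 gave 0.816 and 0.390. As levels, edgeR called all 3 transcripts lower (adjusted p = 0.0431 for Acd, 0.0389 for Mrps11 and 0.0294 for Smarca2). Errors in these 3 genes are the SD of 4 libraries.

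Arf4, Chpf and Ntng2 were called by edgeR but not by limma on logit shares. The log2 usage change was -3.41 for Arf4 and -4.65 without KU55933 3, and -2.78 for Chpf and -4.09 without KU55933 1. Arf4, a Golgi GTPase, had 24.5%, 22.9%, 28.2% and 28.6% with vehicle and 0%, 0%, 6.77% and 3.54% with KU55933 (edgeR adjusted p = 0.0239, limma 0.143), and its call was lost without vehicle 1, 3 or 4 or KU55933 4 (adjusted p up to 0.0891). Chpf, a chondroitin synthesis factor, fell from 18.7% ± 7.70 to 2.75% ± 3.73 (adjusted p = 0.0232), but the call was lost without any 1 of the vehicle libraries, KU55933 3 or KU55933 4 (adjusted p up to 0.112). Ntng2, a netrin-G protein, was high only in vehicle 3 (31.1%) and vehicle 4 (32.0%), was 7.90% and 7.82% in the other vehicle libraries and 0.472% to 5.47% with KU55933. Its call (adjusted p = 0.00274) was lost without vehicle 3 (0.072) or vehicle 4 (0.0845). The genes Chpf (log2 change -1.55, edgeR adjusted p = 0.000504) and Ntng2 (-1.18, 0.000504) were themselves called lower. They stayed called with the GC and length correction (0.0162 and 0.0447), and Arf4 was not called (0.508). As levels, edgeR did not call the Arf4 (0.198) and Chpf (0.0772) transcripts and called the Ntng2 transcript lower (0.0396).

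**Figure D4:**
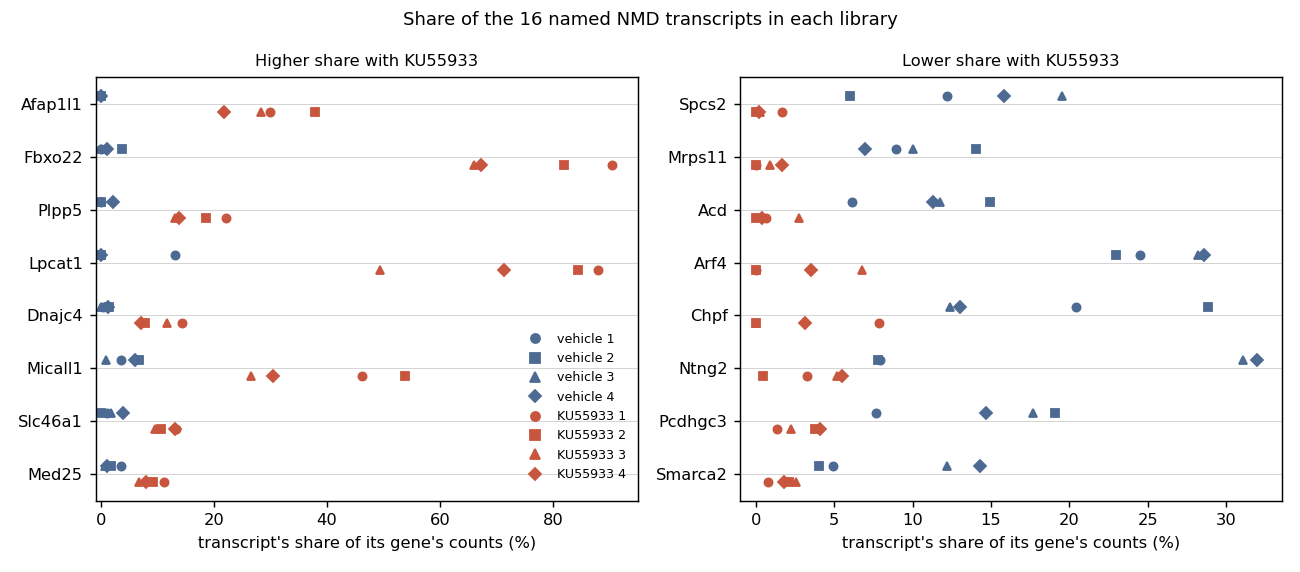
Share of the gene's counts for the 8 NMD transcripts with the largest named rises (left) and the 8 with the largest named falls (right), with a symbol for each library. That no vehicle library overlaps a KU55933 library was a condition for naming these transcripts. The separation is widest for Fbxo22 and Lpcat1.

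Atp5pb, Mdh2, Ndufa10 and Mdm2 had other rises in summed NMD share and were picked here after their values were seen. Atp5pb, a subunit of the ATP synthase stalk, had an NMD share of 17.1%, 15.3%, 13.4% and 14.8% with vehicle and 61.4%, 67.0%, 51.7% and 64.1% with KU55933. The groups lay far apart, and edgeR (adjusted p = 8.17e-10), limma on logit shares (0.000864) and the fit with GC and length correction (3.28e-09) all called it. Its NMD transcript carries an exon outside the coding exons, with 167 bases of its own and 2 junctions, and the coding transcript that moved most the other way fell from 83.4% ± 1.318 to 37.4% ± 6.86 (SD, n = 4; edgeR adjusted p = 6.68e-05). The level of the gene was not called (edgeR log2 change -0.03, adjusted p = 0.787).

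Mdh2, the mitochondrial malate dehydrogenase, and Ndufa10, a complex I subunit, had higher shares too. Mdh2 gave 9.04%, 13.2%, 5.58% and 6.31% with vehicle and 26.5%, 32.0%, 24.2% and 24.3% with KU55933 (edgeR adjusted p = 2.72e-05), and Ndufa10 went from 29.1% ± 10.6 to 57.4% ± 4.10 (SD, n = 4; adjusted p = 0.00628). Mdm2, the ubiquitin ligase that restrains p53, gave 12.2%, 19.5%, 7.91% and 5.38% with vehicle and 38.5%, 37.5%, 37.5% and 39.2% with KU55933. The 4 KU55933 libraries lay close together and above all vehicle libraries (edgeR adjusted p = 0.00017, limma on logit shares 0.0248), and the level of Mdm2 was not called (log2 change 0.09, edgeR adjusted p = 0.566). The gene Mdh2 was called lower (log2 change -0.29, edgeR adjusted p = 0.0384, and 0.806 with the GC and length correction). Ndufa10 was not called at the gene level (0.948). The leading NMD transcripts of Mdh2, Ndufa10 and Mdm2 had 7, 0 and 0 bases of their own.

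Some members disappeared with KU55933. Lrp1, an endocytic receptor, had 137, 173, 144 and 218 NMD counts with vehicle and 0 in all 4 KU55933 libraries, which made the transcript at least 47.5-fold lower in CPM (edgeR adjusted p = 9.39e-08 for the summed share). In a gene of 10520 to 25699 counts, these were 0.845% ± 0.275 with vehicle (SD, n = 4). For Ankhd1 the summed NMD counts were 29, 69, 73 and 137 with vehicle and 1, 1, 0 and 1 with KU55933 (edgeR adjusted p = 1.80e-07). Over all called members, 7 were at 0 in every library of a group, 5 of them with KU55933 and 2 with vehicle. These members passed the count filter only through the other group, and the KU55933 libraries were smaller. No matching count over all called transcripts is given here, so this is not a result about NMD transcripts as a class. Lrp1 and Ankhd1 were also picked after their values were seen.

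The gene lists gave few calls for the share. In the 15 SR and TRA2 splicing factor genes with NMD transcripts, 13 were tested and edgeR called 0, with 2 at an unadjusted p under 0.05, 0 called by limma on logit shares and 1 by limma diffSplice. Tra2b, whose poison exon is a textbook case of NMD, had 9.24%, 6.77%, 6.17% and 7.07% with vehicle and 3.22%, 3.58%, 3.07% and 4.84% with KU55933, without overlap but with an adjusted p of 0.0775 (edgeR) and 0.0882 (limma on logit shares). It was picked after its values were seen. Of the hnRNP genes 10 were tested and edgeR called 0 (3 at an unadjusted p under 0.05, 0 by limma on logit shares, 2 by limma diffSplice). Of 35 other splicing regulators and RNA-binding proteins edgeR called 0 as well, with 1 at an unadjusted p under 0.05 and 0 by either limma test. Over all 2207 tested host genes, edgeR called 97 and 303 had an unadjusted p under 0.05, and limma on logit shares called 52. The median log2 changes of the summed NMD share in these lists were -0.01, -0.20 and -0.13, against -0.01 over all tested host genes.

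Hnrnpa1, Rbm39 and Ahi1 were low in KU55933 1. Hnrnpa1 had 43.2%, 40.8%, 40.9% and 45.8% with vehicle and 20%, 44.99%, 42.4% and 49.9% with KU55933. Rbm39, a splicing factor, had 7.47% to 10.03% with vehicle and 2.96%, 7.32%, 7.66% and 7.28% with KU55933, and Ahi1, a ciliary protein, had 31.5% to 40.3% and 20.5%, 33.2%, 36.7% and 41.2%. In each, KU55933 1 was the lowest of the 8 libraries and the other 3 KU55933 libraries were within or near the vehicle range. These genes were picked after their values were seen.

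Ribosomal protein and synaptic genes gave 3 calls by edgeR, all lower. Of 13 tested ribosomal protein genes edgeR called 2, beside 4.395% of all tested host genes, with 5 at an unadjusted p under 0.05, 1 called by limma on logit shares and 5 by limma diffSplice. In this list 3 genes were higher and 3 lower without overlap between groups, beside 153 higher and 135 lower of all 2207 tested host genes. Of the 2207, 303 had an unadjusted edgeR p under 0.05 and limma on logit shares called 52. Rpl27a went from 4.74%, 2.63%, 7.57% and 8.18% with vehicle to 0.584%, 0.452%, 1.36% and 0.535% with KU55933 (adjusted p = 5.38e-05, limma on logit shares 0.0194). Rpl13a went from 8.68% ± 0.906 to 4.19% ± 1.46 (SD, n = 4; edgeR adjusted p = 0.0400, limma on logit shares 0.0794), a call lost in 7 of the 8 fits without a library, with an adjusted p of up to 0.183. A retained-intron transcript of Rpl13a, chosen because it moved most the other way, rose from 4.26% ± 1.96 to 28.0% ± 5.53 (edgeR adjusted p = 2.30e-10). Pseudogene copies make the read assignment of both genes uncertain. The genes Rpl27a (log2 change -0.30, edgeR adjusted p = 0.0372) and Rpl13a (-0.48, 0.00476) were themselves called lower. With the GC and length correction they gave 0.068 and 0.222. Of 13 tested synaptic and channel genes edgeR called 1, with 3 at an unadjusted p under 0.05, 1 called by limma on logit shares and 2 by limma diffSplice. The gene was Dnm1 (dynamin 1, which cuts off synaptic vesicles), with 2.07%, 2.79%, 4.65% and 5.03% with vehicle and 0.296%, 0.522%, 0.778% and 0.304% with KU55933 (adjusted p = 9.22e-07, limma on logit shares 0.0127). Its gene level was called lower (log2 change -0.28, edgeR adjusted p = 0.0340, and 0.379 with the GC and length correction).

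Stress genes described as NMD targets could hardly be read from this class, since 1 of the 15 in the table, Tbl2, had NMD transcripts. Tbl2 gave 2.39%, 1.88%, 3.40% and 3.57% with vehicle and 0.0698%, 0.0699%, 0.682% and 0.157% with KU55933, on 30 to 56 and 1 to 11 counts. The fall had a log2 usage change of -3.39, and -4.74 without KU55933 3. It was called (edgeR adjusted p = 0.00192, limma on logit shares 0.0194), although without KU55933 1 and 2 together the adjusted p was 0.0809, and the level of the gene was not called (adjusted p = 0.597). The PIKK kinase genes, Atm among them, had no NMD transcript.

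The level of NMD transcripts, as distinct from their share, was called in 114 of 2827 tested members (4.03% against 6.76% of all 45343 transcripts), 32 higher and 82 lower by edgeR. With the correction for GC content and length 29 were higher and 18 lower, and DESeq2 called 110 higher and 133 lower, so the balance of rises and falls changed with the method. Without KU55933 1 there were 20 and 45, without KU55933 2 15 and 38, without vehicle 3 15 and 33, and without vehicle 4 21 and 35. Without KU55933 3 the rises numbered 20.

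Genes of the NMD machinery moved in both directions at the gene level, and nearly all of those calls ended with the GC and length correction. Of 46 genes, edgeR called 7 higher and 8 lower before the correction, beside 21.6% of all 15481 genes, and 0 higher and 1 lower after it. The higher calls numbered 1 without vehicle 2 or vehicle 3, 2 without vehicle 4, and 3 without KU55933 2 or KU55933 3. Upf1, the central helicase, had 71.9, 62.2, 72.1 and 78.6 CPM with vehicle and 48.6, 45.7, 55.8 and 52.7 CPM with KU55933 (log2 change -0.48, edgeR adjusted p = 0.00451, and 0.846 with the correction). Smg9, a partner of SMG1, had 23.4, 27.4, 25.5 and 24.9 CPM against 12.01, 13.4, 16.8 and 18.1 CPM (log2 change -0.74, edgeR adjusted p 0.00291 and 0.663). In both genes the groups did not overlap.

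Upf2, an adaptor between UPF1 and the exon junction complex, was higher, with 72.3, 52.6, 52.8 and 58.9 CPM with vehicle and 86.7, 83.3, 77.4 and 73.7 CPM with KU55933 (log2 change 0.45, edgeR adjusted p = 0.0152, and 0.177 with the correction). This call was lost without vehicle 2 or vehicle 3 (adjusted p up to 0.0555). Smg1, the kinase of the pathway, had 307, 256, 249 and 264 CPM with vehicle and 233, 378, 362 and 397 CPM with KU55933. It was not called with all libraries (edgeR adjusted p = 0.111), and without KU55933 1 it was called higher (log2 change 0.50, edgeR adjusted p = 0.00541).

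**Figure D5:**
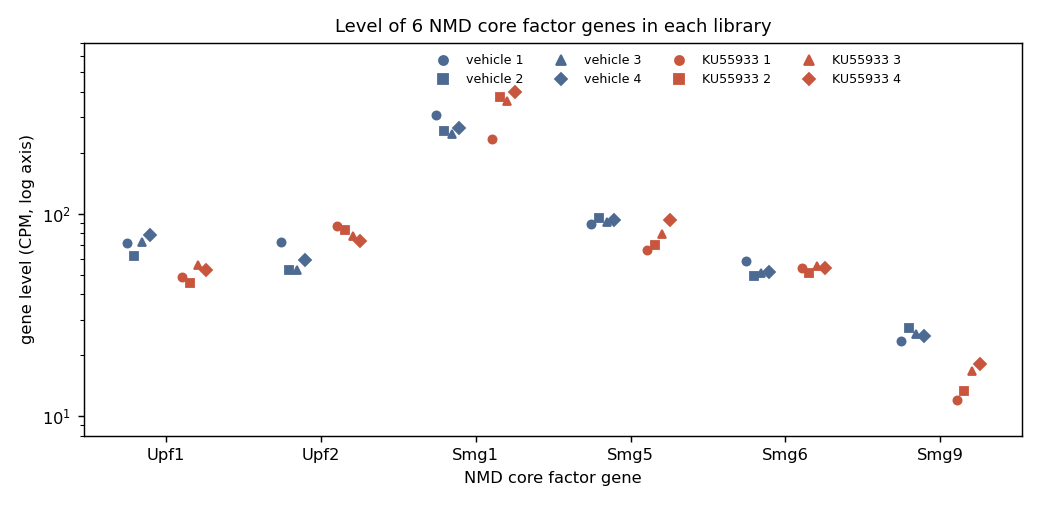
Gene level in CPM, on a log axis, of 6 NMD core factor genes, with a symbol for each library. Upf1 and Smg9 lie lower and Upf2 higher in every KU55933 library, and Smg1 is low in KU55933 1 alone among the KU55933 libraries.

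The exon junction and termination list gave 3 higher and 4 lower of 19 genes, and the decapping and decay list 2 and 2 of 18, beside the 21.6% called over all genes. The decapping list is near that share. Dhx34, an NMD helicase, fell from 10.9 ± 1.62 to 5.21 ± 0.995 CPM (SD, n = 4; edgeR adjusted p = 0.00136) and Skiv2l, an exosome helicase, from 85.1 ± 7.51 to 56.8 ± 8.82 CPM (adjusted p = 0.00529). Pnrc2, a decapping adaptor, rose from 43.3 ± 4.46 to 56.5 ± 3.6 CPM (adjusted p = 0.0103). After the correction Rnps1, a splicing-linked junction protein, was the gene still called (log2 change -0.38, edgeR adjusted p = 0.0134). The core factor genes Smg5 and Smg6 had NMD transcripts themselves, and neither share was called (Smg6 21.5% and 14.2%, Smg5 0.919% and 1.66%, with vehicle and KU55933, edgeR 0 of 2, with 0 at an unadjusted p under 0.05 and 0 by either limma test). In the exon junction list 1 gene and in the decapping list 5 genes were tested for the NMD share, and edgeR called 0 of them, with 0 at an unadjusted p under 0.05 and 0 by either limma test.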

How the data were processed

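RNA from 8 hippocampus libraries was sequenced as stranded mRNA. The authors deposited estimated counts per transcript in 1 table, made with Salmon 1.4.0 after FastQC 0.11.9, on GRCm39, per the submitters' processing notes, which also name DESeq2 1.32.0. The sources used here give neither the annotation release nor a filter. The estimated counts were rounded to whole numbers. Totals were 34190440 to 46630341 counts per library, so counting error is small for the abundant members and large for those with few counts.

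Transcripts passing filterByExpr were fitted with edgeR 4.0.16 (TMM scaling, robust quasi-likelihood, two-sided, Benjamini-Hochberg over everything tested, threshold 0.05). Usage tests (diffSpliceDGE) were run on single transcripts and on counts summed per gene and biotype. They take 1 spread per gene, so limma 3.58.1 was also run on logit shares with 0.5 added to both counts, which uses the spread of each transcript. Levels were tested per transcript and per gene. CPM values are counts scaled to library size, after TMM. Alternatives were limma diffSplice, limma-voom, DESeq2 1.42.0, other scalings, filters and thresholds, a spline correction for GC content (6 degrees of freedom) and length (5), a replicate block, and fits without libraries. Tools ran in R 4.3.3 and Python 3.11.15 with pandas 2.3.3, NumPy 2.4.6 and matplotlib 3.10.9, and were tested on simulated data.

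Transcript features came from GENCODE M21. The 12 genes with the most NMD counts were named, with the 8 largest rises and 8 largest falls among called transcripts in genes with a mean of at least 100 counts, a mean share of at least 5% and no overlap between groups, up to 4 called genes per list, and core factors of the pathway, of which not all are reported here. Provisional symbols and sex-linked genes were left out of the rises and falls. The biotype rule uses no measured value, but this biotype, the 10 gene lists and the 8 marker lists were chosen with earlier results of these data known. Of the marker lists not described above, 3 of 6 subcortical neuron genes were called higher at the gene level, where 21.6% of all genes were called, and 0 of 6 with the GC and length correction. For oligodendrocytes 0 of 6 were called, for astrocytes 1 of 5 lower, for microglia 1 of 5 lower, for endothelial cells 1 higher and 1 lower of 5, and for interneurons 2 of 6 lower. At the gene level 0 of 6 PIKK kinase genes were called by edgeR. Replicate numbers are shared by the groups, but the deviations of same-numbered libraries correlated at 0.0134 to 0.201, with 1 of 4 pairs over 0.1, so they were not treated as pairs. No libraries were near-identical.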

Additional observations from a re-analysis of the deposited data

Results flagged for a closer look

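In 8 of 70 groups of 4 libraries looked at, a single library lay far from the other 3 by Dixon's criterion. Independent normal values meet it in about 1 in 20 groups. Some of these groups hold shares at or near 0, and many genes were chosen from these same values. The 8 of 70 can therefore not be set against that rate. For vehicle 2, 4156 NMD transcripts had a count, against 4261 to 4280 in the other vehicle libraries. The summed NMD share of Lars2 was 76.2% in KU55933 4, against 95.3% to 97.7% in the other KU55933 libraries. That of Ddx5 was 19.5% in KU55933 1, against 40.2% to 41.4%. Epha4 stood at 24.1% in KU55933 2, against 40.9% to 43.7%. For Lpcat1, vehicle 1 had 13.1% and the other vehicle libraries 0%. Spcs2 had 1.69% in KU55933 1, against 0% to 0.249%. Tbl2 had 0.682% in KU55933 3, against 0.0698% to 0.157%. Rpl27a had 1.36% in KU55933 3, against 0.452% to 0.584%.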

How the results depend on the processing

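Among single genes and transcripts, 1147 of 1276 alternative values over 68 results kept their direction and side of the threshold, 118 lost the call, 11 gained one and 0 reversed. Counts of calls moved more. For all values that follow, the cause was not tested. Fits that combine limma on logit shares or the GC and length correction with leaving out KU55933 1 were chosen after seeing the data.

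Transcript shares, 39 higher and 48 lower, gave 112 and 74 by limma diffSplice and 24 and 25 by limma on logit shares without KU55933 1. Without KU55933 1 and 2 together 23 were higher. The lower calls were 31 with a 1 CPM filter and 77 with no filter. Leaving out 1 library gave 29 to 50 higher and 29 to 58 lower.

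Summed shares, 54 higher and 43 lower, gave 108 and 80 by limma diffSplice, 31 and 21 by limma on logit shares, and 15 and 13 by the latter without KU55933 1. Without KU55933 1 and 2 together 31 were higher. Leaving out 1 library gave 29 to 54 higher and 22 to 49 lower.

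Transcript levels, 32 higher and 82 lower, gave 110 and 133 by DESeq2, 6 and 18 without KU55933 1 and 2 together, and 66 and 131 at an adjusted p of 0.1. The GC and length correction gave 18 lower, and 14 lower also without KU55933 1. Leaving out 1 library gave 15 to 36 higher and 33 to 69 lower.

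NMD machinery genes, 7 higher and 8 lower, gave 0 and 1 with the GC and length correction, also without KU55933 1, and 2 and 5 without KU55933 1 and 2 together. The higher calls were 3 with no filter and 12 at an adjusted p of 0.1. Leaving out 1 library gave 1 to 9 higher and 7 to 10 lower. The difference in NMD share of all counts was 0.0996 to 0.168 percentage points without 1 library.

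With the replicate number as a block, the higher and lower calls were 43 and 47 for transcript shares, 68 and 50 for summed shares, 17 and 36 for transcript levels, and 8 and 8 for machinery genes. In each group, 1 of 4 libraries correlated best with its own number in the other group. Low counts limit members such as Dnajc4, Slc46a1 and Tbl2, and shared sequence limits how reads were divided within a gene.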
